A study of Macaca mulatta with 449 samples.

Results

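The parietal association cortex was compared with the postcentral somatosensory cortex within each of 8 rhesus macaques. The association side held 5 sub-regions, the superior parietal lobule (SPL), the posterior superior parietal gyrus (PSPG), the intraparietal sulcus (IPS), the anterior and posterior marginal gyri (AMG&PMG) and the angular gyrus (ALG). The postcentral side held 2 sub-regions, the superior (SPCG) and the inferior (IPCG) postcentral gyrus. The libraries were chosen by their region labels alone, which gave 56 of the 408 libraries in the count table, 40 from the association side and 16 from the postcentral side. The animals were healthy, untreated and without any genetic change, 4 males and 4 females. Animals 4, 7, 8 and 10 were young, at 3.2, 4, 3.8 and 5 years, and animals 2, 3, 6 and 11 were mid-aged, at 10, 10, 10 and 9.8 years. Each library was made from ribosome-depleted RNA of a small tissue block, so every level below is an average over all cells of the block, and the share of white matter in the blocks was not given.

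The postcentral gyrus receives touch and body position from the thalamus and passes it on to the parietal association areas, which combine it with vision for reaching, attention and the sense of space. In primates, sensory cortex is known for fast-spiking inhibitory neurons that contain parvalbumin and for heavy myelination, and association cortex for large dendrites with many synapses. Parvalbumin neurons fire at high rates by means of rapidly opening and closing sodium and potassium channels, and are often wrapped in a matrix of proteoglycans called the perineuronal net.

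Counts of the libraries of a side were summed within each animal, and the 8 association sums, of 48086252 to 59548822 counts, were set against the 8 postcentral sums, of 16645306 to 24640986 counts, with the animal as a block in edgeR's quasi-likelihood test. Levels are CPM, counts scaled to 1000000 in a library after TMM normalization of the totals. Sums over a gene list are instead counts per 1000000 of all counts, without TMM, and take in list members that were not tested. A gene was called at a Benjamini-Hochberg adjusted p (FDR) below 0.05 over all 16049 genes tested. The test called 2308 genes, which is 14.4% of those tested. Of these, 1122 (6.99%) were higher in the association cortex and 1186 (7.39%) higher in the postcentral cortex. Most of the differences were small. The median fold of the called genes was 1.24 for those higher in the association cortex and 1.19 for those higher in the postcentral cortex. Only 66 genes (0.411%) differed by more than 2-fold, 42 of them (0.262%) higher in the association cortex and 24 (0.15%) in the postcentral cortex. The 8 animals of a side did not overlap the 8 of the other side at 61 of the genes tested (0.38%).

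Over the whole profile, libraries of different sides were about as far apart as libraries of the same side. The distance between libraries of an animal, 1 minus Pearson's r of log2(CPM + 1), was 0.0167 ± 0.00903 (SD, n = 8 animals) between the sides 0.0165 ± 0.0100 within the association side and 0.0162 ± 0.0160 within the postcentral side. The distance between sides was larger than that within the association side in 3 of 8 animals (exact sign-flip test, two-sided p = 0.875), and larger than the mean of both within-side distances in 6 of 8 (exact p = 0.820). By their deviations from their animal's mean, 48 of the 56 libraries were most like a sub-region of their own side in the other animals. The 8 others were IPS of animals 2, 3 and 8, SPCG of animals 3 and 6, ALG of animal 3, SPL of animal 6 and PSPG of animal 7. Of the 7 sub-regions that could match 5 were of the association side, which favours a match to that side. On the postcentral side 6 of 8 SPCG and 8 of 8 IPCG libraries matched their side. Only 23 of the 56 libraries were most like their own sub-region. The SPL and IPCG libraries of animal 6 stood farthest from the rest of their animal, at 4.72 and 3.36 times the median distance. Without both libraries 1816 genes were called, and without animals 3, 4 and 6 altogether 1568.

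The 12 called genes with the largest fold toward the association cortex, among those of at least 1 CPM on the higher side and with the same sign in all 8 animals, were CLIC6, CARTPT, DNAH2, SPAG17, CD53, NPPA, NEK2, MAP3K19, FFAR4, MEPE, KL and GLRA3. CARTPT encodes the neuropeptide precursor CART. Its level in the postcentral sums was 0.291 CPM at the lowest, 0.788 at the median and 1.96 at the highest animal, and in the association sums 1.98, 3.35 and 8.21 CPM. The ranges did not overlap, and the log2 fold change of association over postcentral was 1.99 ± 0.20 (SE, edgeR FDR = 2.64e-05). DNAH2, a heavy chain of axonemal dynein, ran from 2.53 through a median of 4.48 to 8.5 CPM in the postcentral cortex and from 12.9 through 18.1 to 31.4 CPM in the association cortex. Its groups did not overlap either (log2 fold change 1.96 ± 0.09, edgeR FDR = 3.35e-08). CD53, a tetraspanin of leukocytes, was at 22 to 31.8 CPM (median 24.6) in the postcentral cortex and at 60.2 to 92.6 CPM (median 82.6) in the association cortex (1.65 ± 0.08, edgeR FDR = 3.35e-08). The tested microglial genes did not share the size of that difference. Of 10 listed microglia markers 5 were tested, and the others had no unique symbol among the genes counted. Only P2RY12 was called, at a log2 fold change of 0.16 ± 0.04 (edgeR FDR = 0.0333), beside 14.4% of all genes tested in either direction. It was not called without SPL or without the SPL and IPCG libraries of animal 6. PTPRC, the common leukocyte antigen, was at 3.29 ± 0.533 CPM (SD, n = 8) in the association and 3.04 ± 0.470 CPM in the postcentral cortex.

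MEPE, known as a matrix phosphoprotein of bone, was at 19.8 to 38.7 CPM (median 28.1) in the postcentral cortex and at 44.1 to 111 CPM (median 65.5) in the association cortex. GLRA3, a subunit of the glycine receptor, ran from 2.71 to 5.01 CPM and from 6.16 to 11.7 CPM on these sides. Neither gene overlapped between the sides, and their log2 fold changes were 1.28 ± 0.10 and 1.21 ± 0.10 (edgeR FDR = 3.82e-06 and 7.24e-06). FFAR4, a receptor for long-chain fatty acids, was at 2.94 ± 1.37 CPM (SD, n = 8) in the postcentral and 7.37 ± 2.18 CPM in the association cortex. KL, which encodes klotho, a co-receptor of fibroblast growth factors, was at 2.94 to 5.19 CPM (median 4.03) in the postcentral and at 6.54 to 12.9 CPM (median 10.0) in the association cortex. CLIC6, an intracellular chloride channel protein, had the largest fold, with animals at 0.158 to 2.1 CPM against 1.07 to 10.1 CPM (log2 fold change 2.28 ± 0.19, edgeR FDR = 7.24e-06).

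KL and CLIC6 also stand on the list of choroid plexus markers, of which 3 were tested. Both passed the test, and the other, SLC4A5, had a log2 fold change of -0.12 ± 0.12. The list had 8 genes, of which TTR, KCNJ13 and AQP1 had no unique symbol among the genes counted. The 5 choroid plexus genes in the table summed to 4.87 to 9.87 CPM in the postcentral and 9.72 to 25.3 CPM in the association cortex. Of these, FOLR1 was below the filter and OTX2 was at no more than 2 counts in any of the 56 libraries. KL and CLIC6, which were named for their folds, made up most of this sum, so it adds little to their own values. Their means were 4.03 and 0.843 CPM in the postcentral and 9.51 and 4.05 CPM in the association cortex. DNAH2, SPAG17 and MAP3K19 are genes of motile cilia, the beating hairs of ependymal cells. A list of cilium genes made after these values were seen had 18 tested members. Higher in the association cortex were 4, which are the 3 genes that prompted the list and DNAH5. Higher in the postcentral cortex were 2, SPAG6 and DNAH10. Of all genes tested 6.99% and 7.39% were called in these directions. FOXJ1, which switches on ciliary genes, was at 1.04 ± 0.319 CPM in the association and 1.32 ± 0.408 CPM in the postcentral cortex (SD, n = 8), a difference that did not pass the test. The summed level of the cilium list was 221 to 284 CPM in the association and 212 to 287 CPM in the postcentral cortex.

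By the same rule the 12 genes with the largest fold toward the postcentral cortex were OSTN, UTS2B, DMRT2, PF4V1, MYL10, ISLR, STC1, PXDNL, ABI3BP, MATN4, RET and SLC38A4. OSTN encodes osteocrin, a secreted peptide of muscle and bone that neurons of primates also make in response to activity. It ran from 7.65 through a median of 11.9 to 20 CPM in the postcentral cortex and from 1.75 through 3.32 to 5.81 CPM in the association cortex, without overlap (log2 fold change -1.83 ± 0.14, edgeR FDR = 3.54e-06). UTS2B, the precursor of a peptide related to urotensin, ran almost alike, from 7.79 through 10.7 to 18.6 CPM and from 1.76 through 3.03 to 5.37 CPM (-1.78 ± 0.12, edgeR FDR = 9.58e-07). STC1, the secreted glycoprotein stanniocalcin, was at 2.66 to 4.91 CPM in the postcentral and 0.941 to 1.9 CPM in the association cortex. ISLR, a leucine-rich repeat protein, was at 3.75 to 8.6 CPM and 0.998 to 3.64 CPM. Neither gene overlapped between sides. RET, the receptor kinase for ligands of the GDNF family, was at 6.79 ± 2.30 CPM (SD, n = 8) in the postcentral and 3.11 ± 0.718 CPM in the association cortex, with overlapping ranges. DMRT2, MYL10, MATN4 and SLC38A4 were low on both sides, at 1.05 to 2.97 CPM on their higher side. PF4V1 is a near copy of PF4, and reads of the copies may not have been told apart.

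**Figure D1:**
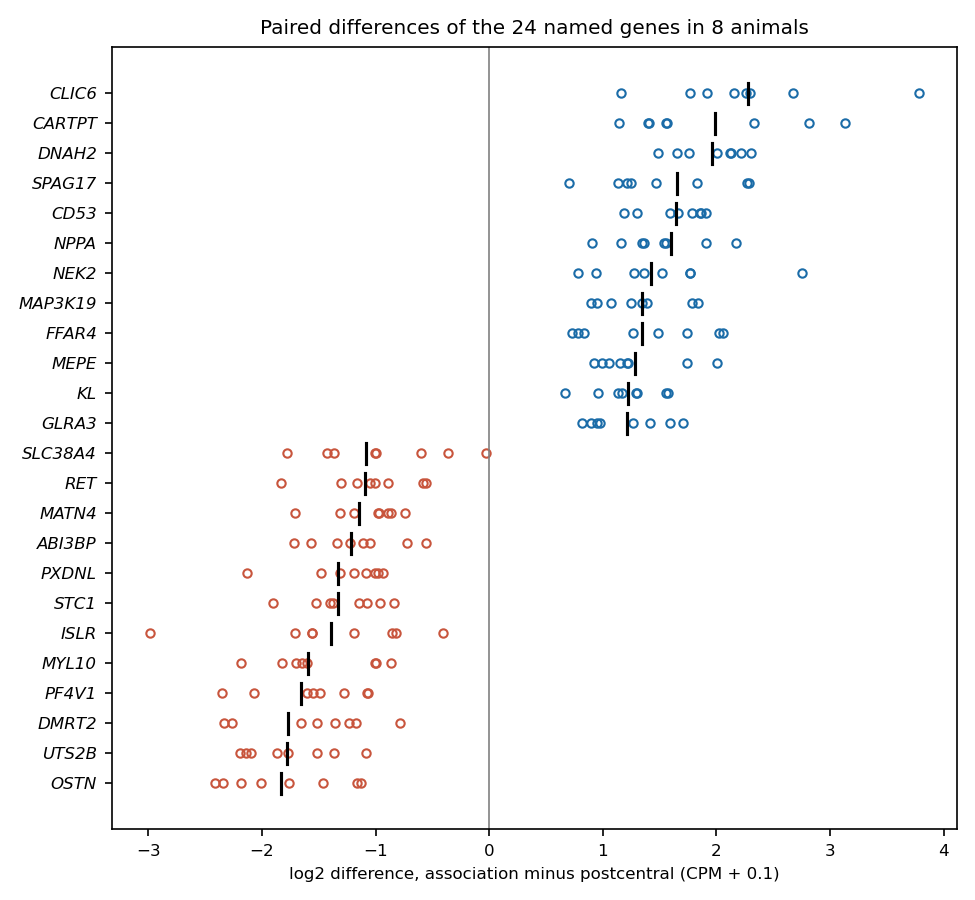
Paired differences of the 24 named genes. Each circle is an animal, on a log2 scale of CPM + 0.1, association minus postcentral (blue, genes higher in the association cortex; red, genes higher in the postcentral cortex), and the black bar is the fitted log2 fold change. All 8 circles of each gene lie on the same side of 0, as the rule for naming required.

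Most genes of parvalbumin interneurons and fast-spiking channels were higher in the postcentral cortex. Of 13 tested members 9 passed the test there and none in the association cortex, beside 7.39% and 6.99% of all genes tested. The median log2 fold change of the list was -0.42, beside -0.0015 over all genes tested. PVALB, the calcium buffer that names these cells, ran from 64.2 through a median of 77.2 to 102 CPM in the postcentral cortex and from 35 through 41.9 to 53.3 CPM in the association cortex. KCNC1, the rapid potassium channel Kv3.1, ran from 178 through 222 to 249 CPM and from 115 through 146 to 175 CPM. Neither of these 2 genes overlapped between the sides. Their log2 fold changes were -0.87 ± 0.06 and -0.62 ± 0.04 (edgeR FDR = 1.2e-06 and 5.01e-07). The called members also included the potassium channel genes KCNS1, KCNS3 and KCNAB3, the sodium channel gene SCN1A and CPLX1, at -0.25 to -0.43. CPLX1 encodes a complexin, which regulates transmitter release. SYT2, the calcium sensor of fast inhibitory terminals, was at 39.1 ± 26.4 CPM in the postcentral and 25.5 ± 13.2 CPM in the association cortex and did not pass (SD, n = 8; edgeR FDR = 0.0733). Without SPL 6 of the 9 stayed called, and without the SPL and IPCG libraries of animal 6 all 9 did.

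Neurofilament and perineuronal net genes divided. Of 9 tested members 6 were higher in the postcentral cortex, 2 in the association cortex and 1 did not pass, with a list median of -0.28. Of all genes tested 7.39% were called toward the postcentral and 6.99% toward the association cortex. The 4 genes of neurofilaments and internexin on the list were among the 6. NEFH, the heavy subunit of large axons, was at 240 to 361 CPM in the postcentral and 124 to 251 CPM in the association cortex (log2 fold change -0.78 ± 0.07, edgeR FDR = 7.84e-06). NEFM, INA and NEFL were lower in the association cortex by 0.51, 0.28 and 0.26 on the log2 scale. HAPLN4, a link protein of perineuronal nets, ran from 166 to 320 CPM and from 92.1 to 195 CPM (-0.72 ± 0.05, edgeR FDR = 1.1e-06), and ACAN, the net's aggrecan core, was lower in the association cortex too (-0.52 ± 0.11). The 2 matrix genes that were higher in the association cortex were VCAN, which encodes versican (0.25 ± 0.07), and TNR, which encodes tenascin R (0.60 ± 0.18).

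All 8 tested oligodendrocyte markers were called higher in the postcentral cortex, as were 7.39% of all genes tested, and their median was -0.42. MBP, myelin basic protein, ran from 2114 through a median of 2481 to 3803 CPM in the postcentral and from 1331 through 1891 to 2065 CPM in the association cortex, without overlap (log2 fold change -0.49 ± 0.08, edgeR FDR = 0.000878). MOG, a glycoprotein of the outer face of myelin, differed by -0.44 ± 0.08. The 8 markers summed to 3892 to 7038 CPM in the postcentral and 2496 to 4079 CPM in the association cortex, and the sum was higher in the postcentral cortex of every animal. In bulk tissue fewer cells of a type and less RNA per cell cannot be told apart, and how far the share of white matter in the blocks enters the neuronal genes was not tested. None of the 4 tested markers of oligodendrocyte precursors passed. Pan-neuronal genes went both ways, with SNAP25, RBFOX3 and the synaptic calmodulin-binding gene NRGN higher in the postcentral cortex (-0.21, -0.17 and -0.41), SYT1 and MAP2 higher in the association cortex (0.14 and 0.38) and 5 of 10 not called. The 10 genes summed to 15699 to 18023 CPM in the postcentral and 15185 to 16786 CPM in the association cortex, and the sum was lower in the association cortex of 8 of 8 animals, as were the sums of the parvalbumin and neurofilament lists. The part of this in those lists was not tested. SNAP25 held much of the pan-neuronal sum, at a median of 7115 CPM in the postcentral and 6140 CPM in the association cortex. The median log2 fold change of the 10 genes was -0.025. Of the 5 pan-neuronal calls 2 remained without the SPL and IPCG libraries of animal 6, and 3 without animal 2, 6 or 8.

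**Figure D2:**
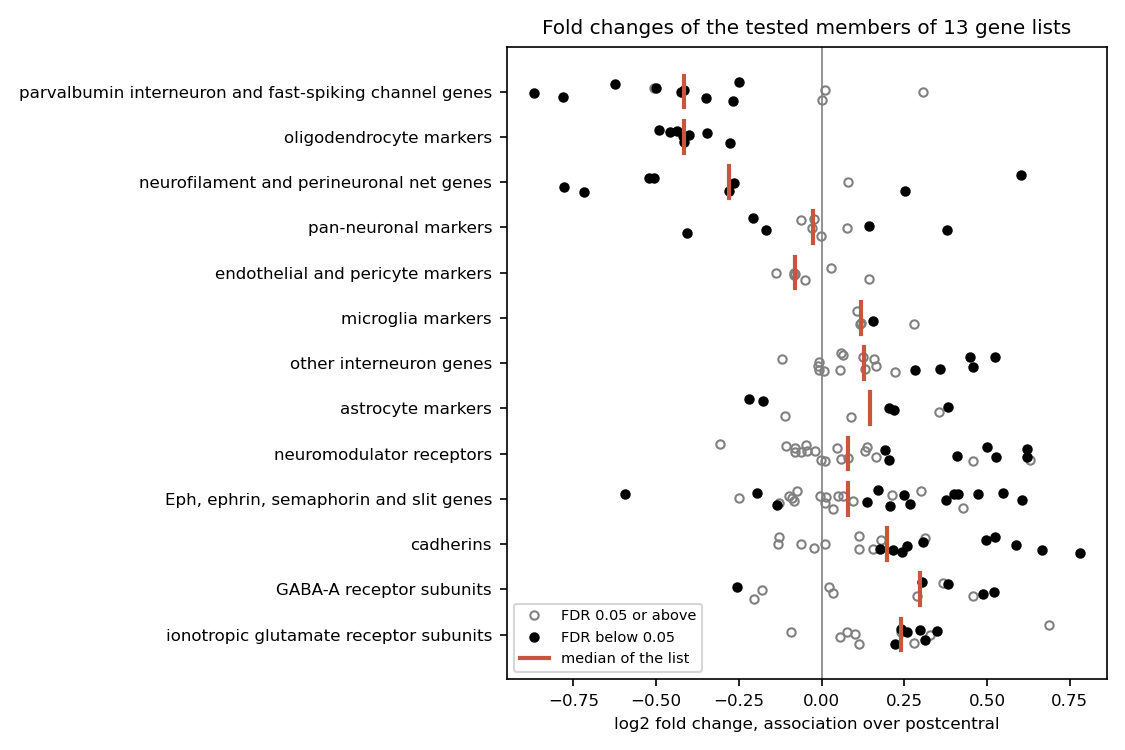
Log2 fold change, association over postcentral, of every tested member of 13 gene lists (filled, FDR below 0.05; open, FDR of 0.05 or above; red bar, list median). Parvalbumin and oligodendrocyte lists lie mostly to the left, with medians of -0.42, and the glutamate and GABA-A receptor lists to the right, with medians of 0.24 and 0.30.

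Most of the called receptor genes of the main transmitters were higher in the association cortex. Of 15 ionotropic glutamate receptor subunits 6 were called, all in that direction, in which 6.99% of all genes tested were called, and the list median was 0.24. GRIA1, an AMPA receptor subunit, ran from 146 through a median of 178 to 198 CPM in the postcentral and from 176 through 225 to 251 CPM in the association cortex. Its ranges overlapped although it was higher in 8 of 8 animals (log2 fold change 0.35 ± 0.04, edgeR FDR = 5e-05). The AMPA subunits GRIA2 and GRIA4, the kainate subunits GRIK1 and GRIK2 and the NMDA subunit GRIN3A were the other 5, at 0.22 to 0.31. Of 12 GABA-A receptor subunits 4 were higher in the association cortex and 1 in the postcentral cortex. GABRA3 ran from 9.76 to 18.1 CPM in the postcentral and from 15.5 to 22.9 CPM in the association cortex (0.49 ± 0.07, edgeR FDR = 0.000485), and GABRG1, GABRB1 and GABRA2 differed by 0.52, 0.38 and 0.30. GABRD, whose subunit sits outside synapses and carries tonic inhibition, was the exception at -0.25 ± 0.04 (edgeR FDR = 0.000395). Not every association sub-region was above both postcentral ones. The glutamate receptor list summed on average to 2012 CPM in SPCG and 1847 in IPCG. It summed to 1987 CPM in IPS, 2055 in SPL, 2137 in ALG, 2196 in PSPG and 2317 in AMG&PMG. The GABA-A list summed to 987 CPM in SPCG and 846 in IPCG. It summed to 913 CPM in SPL, 997 in IPS, 1017 in ALG, 1063 in AMG&PMG and 1094 in PSPG. Among receptors for neuromodulators 7 of 25 were called, all higher in the association cortex, from the acetylcholine receptor subunit CHRNB2 (0.19 ± 0.05) to the serotonin receptor HTR1A (0.62 ± 0.13) and the cannabinoid receptor CNR1 (0.62 ± 0.09). Without AMG&PMG 3 of these 7 stayed called, and without animal 8, 4 of them.

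Of 18 tested genes of other interneuron classes 5 were higher in the association cortex and none in the postcentral cortex, beside 6.99% and 7.39% of all genes tested. The 5 were CALB2 and CALB1, which encode calretinin and calbindin (0.52 ± 0.12 and 0.36 ± 0.07), the opioid precursor PENK (0.46 ± 0.06), ADARB2 (0.45 ± 0.10) and RELN, the secreted protein reelin (0.28 ± 0.06). Astrocyte markers were mixed, with GFAP, GJA1 and AQP4 higher in the association cortex, ALDH1L1 and GLUL higher in the postcentral cortex and 3 of 8 not called. Over all genes tested 14.4% were called in either direction. None of 7 endothelial and pericyte markers passed, and of 7 meningeal fibroblast markers FBLN1 alone did (0.27 ± 0.07). The blood list had no member above the filter, and its 5 genes in the table summed to at most 1.5 CPM.

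Among genes that guide axons and hold cells together, more were called toward the association than toward the postcentral cortex. Of 20 tested cadherins and protocadherins 10 were higher there and none in the postcentral cortex, with a list median of 0.20. CDH8 ran from 62 through a median of 68.2 to 86.2 CPM in the postcentral and from 98.3 through 109 to 129 CPM in the association cortex, and CDH9 from 20.8 through 29.2 to 36.2 CPM and from 37 through 40.8 to 49.1 CPM. Both were free of overlap, with log2 fold changes of 0.67 ± 0.05 and 0.50 ± 0.07 (edgeR FDR = 1.27e-06 and 0.000281). PCDH19 had the largest fold of the list (0.78 ± 0.08). Of 30 Eph, ephrin, semaphorin and slit genes 11 were higher in the association cortex and 3 in the postcentral cortex, beside 6.99% and 7.39% of all genes tested. EFNB3, a transmembrane ephrin, ran from 27.2 to 36.7 CPM in the postcentral and from 37.6 to 60.5 CPM in the association cortex (0.55 ± 0.07, edgeR FDR = 0.000104). In the other direction SEMA7A, a membrane-anchored semaphorin, was at 171 ± 48.7 CPM in the postcentral and 111 ± 23.8 CPM in the association cortex (SD, n = 8; -0.59 ± 0.07, edgeR FDR = 7.29e-05). Without SPL 6 of the 10 cadherins stayed called, and 7 without the SPL and IPCG libraries of animal 6. Of the 14 guidance genes 9 stayed called without SPL and without animal 6.

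Among 8 tested genes known for areal patterns in primate cortex, PNMA5 and RBP4 were higher in the association cortex and OSTN and FSTL1 in the postcentral cortex. PNMA5, a gene of association areas in primates, ran from 11.6 through a median of 16.2 to 21.2 CPM in the postcentral and from 24 through 29.6 to 39.5 CPM in the association cortex, without overlap (0.90 ± 0.10, edgeR FDR = 4.37e-05). RBP4, a carrier of retinol, was at 16.5 ± 7.14 CPM in the postcentral and 31.7 ± 5.39 CPM in the association cortex (SD, n = 8; 1.00 ± 0.15, edgeR FDR = 0.000415). FSTL1, a follistatin-like protein known from visual cortex, fell from 90.1 to 118 CPM in the postcentral to 63.5 to 86.9 CPM in the association cortex (-0.56 ± 0.06, edgeR FDR = 2.36e-05). Other retinoid genes called included RARB and ALDH1A1, higher in the association cortex (0.21 ± 0.06 and 0.14 ± 0.04), and CYP26A1, higher in the postcentral cortex (-0.73 ± 0.22). Of 15 tested, 3 were higher in the association and 2 in the postcentral cortex, beside 6.99% and 7.39% of all genes tested. Of these 5 calls, RBP4 included, 2 remained without SPL, without animal 3 or without animal 11, and 3 without AMG&PMG, without animal 6 or without animal 8. Of 13 patterning transcription factors and cofactors BHLHE22 was higher in the postcentral cortex (-0.76 ± 0.10) and NR2F2 in the association cortex (0.33 ± 0.08), a share of calls near the 14.4% over all genes tested.

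Laminar genes were called in both directions, as were 6.99% of all genes tested toward the association and 7.39% toward the postcentral cortex. Of 10 upper layer and layer 4 genes 3 were higher in the association cortex, CARTPT and COL5A2 among them, and KCNIP2 and CUX1, a transcription factor of upper layers, higher in the postcentral cortex (-0.53 ± 0.06 and -0.49 ± 0.07). RORB, the usual marker of layer 4, was not called. Of 19 deep layer genes 2, TSHZ2 and CRYM, were higher in the association cortex, near the share over all genes tested. In the postcentral cortex 4 were higher, THEMIS, PCP4, SULF1 and NR4A2, and without SPL 3 of the 6 stayed called. SLC17A6, the vesicular glutamate transporter of thalamic neurons, was at 126 ± 18.7 CPM in the postcentral and 87.0 ± 18.4 CPM in the association cortex (SD, n = 8; -0.54 ± 0.06, edgeR FDR = 7.5e-05). Of the other thalamic genes PRKCD and CALB2 were higher in the association cortex (0.69 ± 0.12 and 0.52 ± 0.12), and 5 of 8 were not called. Immediate early genes, which neurons switch on within minutes of activity, were mostly not called, and the calls were split. Of 21 listed 14 were tested, and 8 of these were not called. ARC and IER5 were higher in the postcentral cortex, as was NR4A2 (-0.35, -0.37 and -0.26), while NPTX2, NR4A3 and BDNF were higher in the association cortex (0.39, 0.33 and 0.22). Of 4 stress response genes GADD45G alone passed (-0.47 ± 0.10).

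The sub-regions of the association cortex differed from the postcentral cortex to unequal degrees. In a fit of all 56 libraries with the animal as a block, each sub-region was set against the mean of SPCG and IPCG over 15171 genes. AMG&PMG differed at 2829 genes (18.6%), ALG at 1229 (8.1%), SPL at 752 (4.96%), PSPG at 581 (3.83%) and IPS at 318 (2.1%). The 5 comparisons share the postcentral libraries. AMG&PMG had 1477 genes higher and 1352 lower than the postcentral mean, and 236 of its genes passed 2-fold, against 26 in IPS. The counts of the sub-regions rest on 8 libraries each, and no test of the difference between these counts was made.

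**Figure D3:**
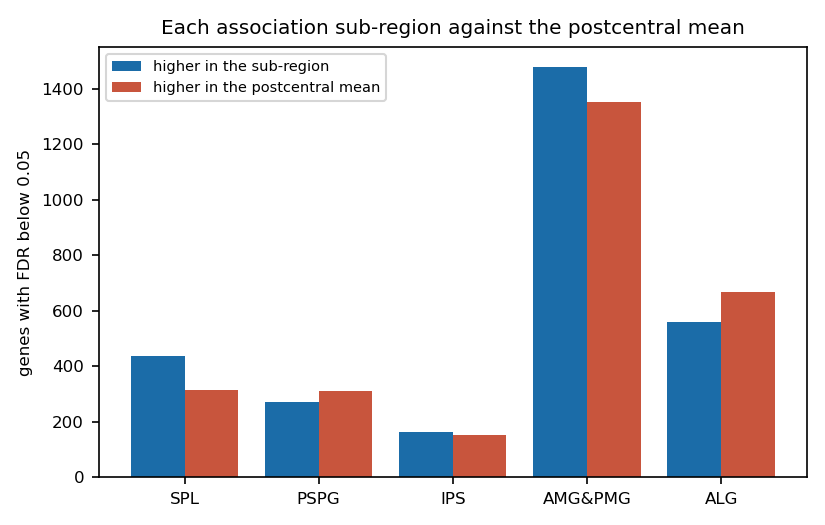
Genes called against the postcentral mean in each association sub-region (blue bars, higher in the sub-region; red bars, higher in the postcentral mean). AMG&PMG has the tallest pair of bars, at 1477 and 1352 genes, and IPS the shortest, at 164 and 154.

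PVALB was lowest in AMG&PMG, at 27.5 ± 6.51 CPM (SD, n = 8), followed by ALG at 41.1 ± 7.23, SPL at 46.4 ± 15.1, PSPG at 47 ± 11.6 and IPS at 60.3 ± 6.56 CPM, and was at 77.5 ± 16.1 CPM in SPCG and 83.5 ± 14.9 in IPCG. ALG, SPL and PSPG lay within their SDs of each other, as did SPCG and IPCG. An F test over the 5 association sub-regions called 609 of 15035 genes (4.05%), PVALB among them (edgeR FDR = 2.08e-05). KCNC1, NEFH and HAPLN4 had their lowest mean in AMG&PMG and their highest, closest to the postcentral level, in IPS, and each varied among the 5 (edgeR FDR = 0.000125, 1.71e-05 and 2.14e-06). MBP was also lowest in AMG&PMG, and in IPS it reached the postcentral level. IPS, at 2624 ± 825 CPM, was near the levels of SPCG and IPCG, at 2479 ± 628 and 2619 ± 527 CPM, and AMG&PMG was lowest, at 1249 ± 441 CPM (log2 fold change over the postcentral mean 0.03 ± 0.13 in IPS and -1.05 in AMG&PMG). The summed oligodendrocyte markers were at 4893 ± 1594 CPM in IPS and 2340 ± 675 CPM in AMG&PMG. Between these lay SPL, PSPG and ALG, at 3561, 3158 and 2856 CPM on average. In IPS, PVALB was lower than the postcentral mean (-0.40 ± 0.11, edgeR FDR = 0.0471) and MBP was not called (edgeR FDR = 0.959). The difference between these 2 results was not tested. The SPL library of animal 6, with 213 CPM of KCNC1 and 2982 CPM of MBP, was above the other SPL libraries in both genes.

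**Figure D4:**
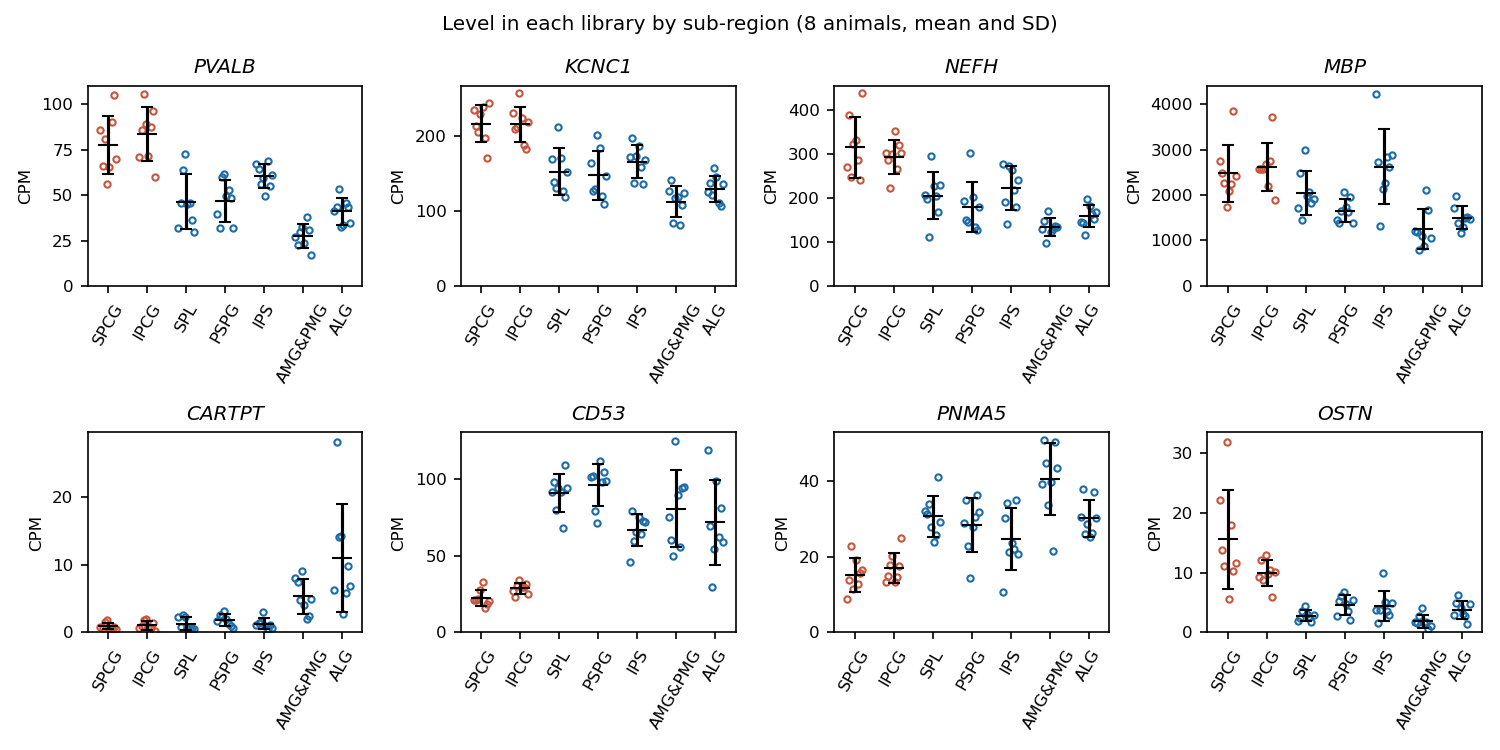
Level in CPM of 8 genes in each of the 56 libraries by sub-region (circles, animals; bar, mean with SD; red, postcentral; blue, association). PVALB, KCNC1 and NEFH are lowest in AMG&PMG, MBP of IPS reaches the postcentral level, CARTPT is highest in ALG and AMG&PMG, and CD53 is at 29.8 CPM or more in every association library, with the lowest of ALG inside the postcentral range.

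The 3 genes with the smallest FDR among the association sub-regions were MET, CARTPT and SYT17. MET, the receptor of hepatocyte growth factor, was at 131 ± 36.5 CPM (SD, n = 8) in ALG, with a range of 72.6 to 179 CPM, and between 40.3 and 76.2 CPM on average in the 4 other association sub-regions (edgeR FDR = 6.76e-11). In SPCG and IPCG it was at 58.5 ± 20.7 and 51.8 ± 19.1 CPM. CARTPT was at 11.0 ± 8.02 CPM in ALG, 5.33 ± 2.61 CPM in AMG&PMG and at or under 1.82 CPM on average in IPS, SPL and PSPG (edgeR FDR = 6.92e-10). Over the postcentral mean CARTPT differed by 3.42 and 2.47 on the log2 scale in ALG and AMG&PMG and by 0.89 in PSPG, and its differences of 0.39 and 0.40 in SPL and IPS were not called. SYT17, a member of the synaptotagmin family, was at 78.9 ± 17.9 CPM in AMG&PMG and 38.7 to 55.0 CPM in the others (edgeR FDR = 2.81e-09). CD53 and NEK2 had no such difference among the 5 (edgeR FDR = 0.128 and 0.877), and both were called over the postcentral mean in each.

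Within the postcentral cortex no gene of 14183 (0%) differed between IPCG and SPCG by edgeR at FDR below 0.05, and none by DESeq2, while 628 had an unadjusted p below 0.05. OSTN and UTS2B were at 15.5 ± 8.28 and 14.3 ± 6.69 CPM (SD, n = 8) in SPCG and at 9.95 ± 2.15 and 9.05 ± 2.85 CPM in IPCG. By edgeR no gene was called for a side difference that depended on age stage or sex (0 of 16049 in each, 0%). At an unadjusted p below 0.05 were 2296 and 1726 genes, so a dependence at some genes was not excluded. DESeq2 called 101 genes for age stage and 11 for sex. Leaving out animal 11 raised the edgeR count for sex to 822, with 3 females against 4 males.

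The same genes were then read in the precentral gyri in front of the postcentral gyrus (16 libraries) and in the occipital gyri behind the parietal cortex (24 libraries), summed within each animal in the same way. Precentral cortex differed from postcentral cortex at 4019 of 16169 genes (24.9%) and occipital from association cortex at 6195 (38.3%), in tests that share libraries with the comparison that chose the 24 genes. The comparison of occipital with precentral cortex shares none of them, though the animals are the same, and it was added after the other values were seen. Of the 12 genes higher in the postcentral cortex 9 were higher in occipital than in precentral cortex (25.7% of all genes tested were), 1 was lower and 2 were not called. Of the 12 genes higher in the association cortex 10 were lower in occipital than in precentral cortex (25.9% of all genes tested were) and 2, CARTPT and CD53, were higher.

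OSTN went from 3.40 ± 1.69 CPM (SD, n = 8) in precentral to 49.9 ± 16 CPM in occipital cortex, with 12.4 ± 4.05 CPM in postcentral and 3.49 ± 1.24 CPM in association cortex (occipital over precentral 3.91 ± 0.18 on the log2 scale, edgeR FDR = 2.24e-16). UTS2B ran in parallel, at 3.07 ± 1.28 and 47.3 ± 14.2 CPM in precentral and occipital cortex (3.97 ± 0.16). MEPE was at 90.2 ± 39.3 CPM in precentral and 15.4 ± 8.10 CPM in occipital cortex (-2.56 ± 0.18, edgeR FDR = 3.2e-12), and FFAR4 at 11.1 ± 3.26 and 0.395 ± 0.922 CPM (-5.11 ± 0.39). PXDNL, a peroxidasin-like protein, was the gene of the 12 that was lower in occipital cortex, with 1.64 ± 0.718 CPM in precentral and 0.781 ± 0.298 CPM in occipital cortex. CD53 was at 22.3 ± 2.68 CPM in precentral, 27.5 ± 6.26 CPM in occipital and 25.7 ± 3.68 CPM in postcentral cortex, all under its lowest association animal at 60.2 CPM. PVALB was at 43.5 ± 10.7 CPM in precentral and 128 ± 11.5 CPM in occipital cortex (1.59 ± 0.09, edgeR FDR = 1.58e-14), on either side of the postcentral level. KCNC1 was at 154 ± 31.2 and 199 ± 23.3 CPM (0.38 ± 0.06), both means below its postcentral mean of 218 CPM. PNMA5 and RBP4 ran the other way, at 35.4 ± 7.08 and 42.8 ± 9.32 CPM in precentral and 7.29 ± 3.04 and 3.53 ± 2.72 CPM in occipital cortex. MBP did not follow PVALB, with 2996 ± 824 CPM in precentral and 2207 ± 290 CPM in occipital cortex.

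**Figure D5:**
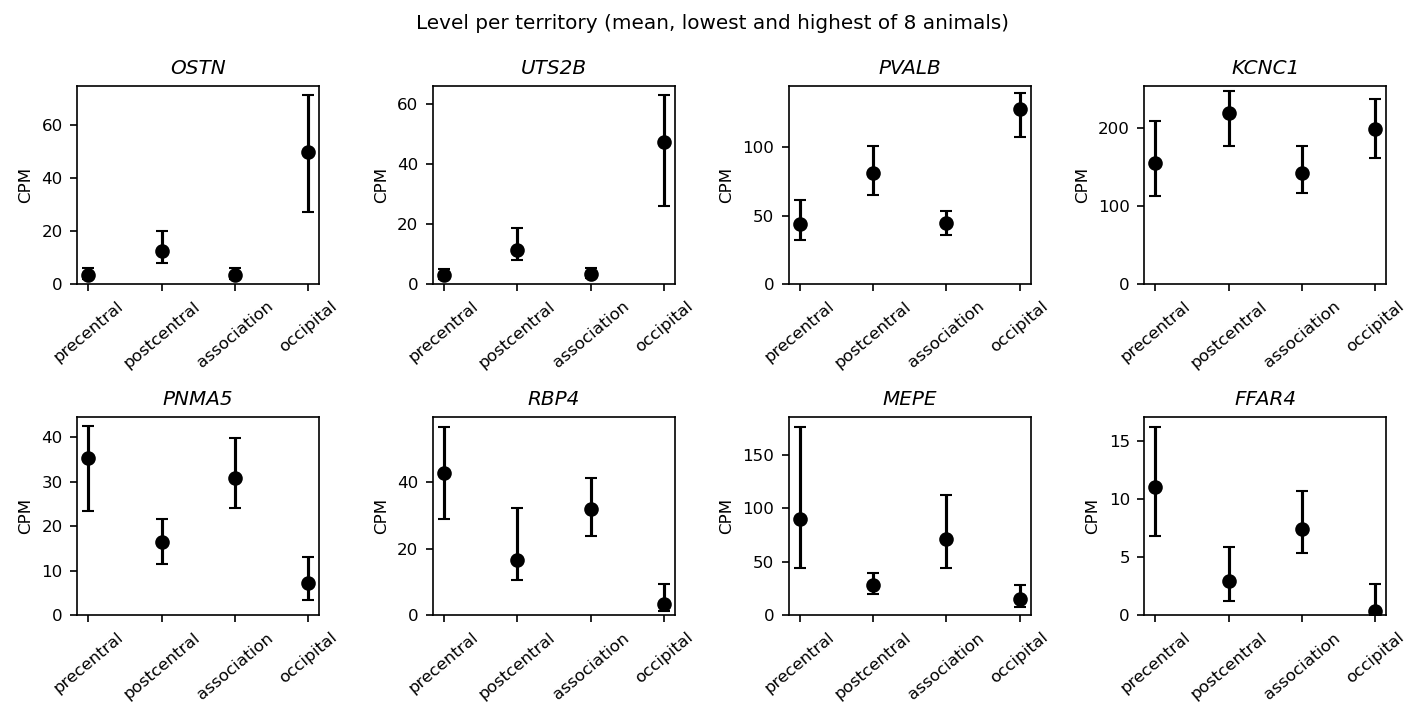
Level in CPM of 8 genes in precentral, postcentral, association and occipital cortex (point, mean; bars, lowest and highest of the 8 animals' sums). OSTN, UTS2B and PVALB peak in occipital cortex, at 49.9, 47.3 and 128 CPM on average, and PNMA5, RBP4, MEPE and FFAR4 are lowest there.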

How the data were processed

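RNA of 8 macaques was sequenced after ribosomal RNA removal. As the methods state, the authors trimmed samples of poor read quality (Trim Galore 0.4.4), aligned reads to Mmul 8.0.1 (HISAT2 2.0.5) and counted them on Ensembl 91 genes (HTSeq 0.6.1). The deposited table holds raw read counts, 1 column a library. Strand and overlap options were not given in the sources used here, so counts of overlapping genes and near-identical copies are uncertain. The deposited transcript assembly was not used. Of 30807 genes 17572 had a symbol in a reference table. The 56 libraries held 7784678 to 15173822 counts (median 10869048), and no 2 libraries were identical.

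Members and gene lists were chosen with earlier results of these data known. Counts were summed per animal and side and tested with edgeR 4.0.16 (R 4.3.3; filterByExpr, TMM, quasi-likelihood F test, animal as block, Benjamini-Hochberg). The SE of a log2 fold change is its size divided by the square root of F. Sub-regions were tested on 56 libraries, age stage and sex as interactions with side. The sums of an animal paired by design, with deviations correlated at r = 0.641 to 0.905 within an animal and -0.545 to 0.403 between animals. Named genes were the 12 largest folds per direction at FDR below 0.05 with a unique symbol, at least 1 CPM on the higher side and 8 animals agreeing in sign, the list members, and the 3 smallest FDR of the other tests that made calls. Distances used Python 3.11.15, numpy 2.4.6 and scipy 1.17.1, figures matplotlib 3.10.9. Alternatives were DESeq2 1.42.0, its size factors, other filters, no block, equal library weights, left-out animals and sub-regions and, as a covariate, the transcript integrity score medTIN that the study gives. Leaving out the 2 libraries of animal 6, or animals 3, 4 and 6, and the comparison of occipital with precentral cortex were chosen after seeing the data. No sequence is shown, because none was in the files used here. Some list members are counted but not reported here by name.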

Additional observations from a re-analysis of the deposited data

Results flagged for a closer look

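Of 134 sets of 8 paired differences (association minus postcentral), 10 (7.46%) had an animal farther from the 7 others than Dixon's 95% critical value of 0.526 allows, where chance gives about 1 in 20. Animal 4 stood apart for 5 genes. On the log2 scale its difference was 0.34 in CDH11, against 0.17 to 0.22 in the others, 0.83 in CDH18 (-0.06 to 0.34), 2.43 in PCDH11X (0.09 to 1.18), 0.64 in RARB (0.043 to 0.30) and -0.0061 in SEMA7A (-0.79 to -0.50). Animal 10 stood apart in BDNF, at -0.24 against 0.12 to 0.39, and in HTR1A, at 1.58 against -0.046 to 0.70. It also had the largest excess of profile distance between the sides over that within the association side, at 0.00639 against -0.00259 to 0.00165. Animal 3 stood apart in CDH9, at 1.04 against 0.28 to 0.54, and in PXDNL, at -2.13 against -1.48 to -0.94. The causes were not tested.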

How the results depend on the processing

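Of 2308 calls, 2164 were shared with DESeq2 (2329 calls) and 2289 with DESeq2 size factors (2304), and with medTIN as a covariate 1836 were shared of 2515. Without a filter 2350 genes were called, and the share higher in the association cortex went from 48.6% to 63.3%, and to 57.1% of 2206 under the study's detection rule, which called 101 genes over 2-fold. The fits that ignore the pairing of the sums by animal (no block) gave 160 calls, 70 higher in the association and 90 in the postcentral cortex, 33 of them over 2-fold, 111 among the association sub-regions, and against the postcentral mean 201 in SPL, 133 in PSPG, 28 in IPS, 1318 in AMG&PMG and 404 in ALG. Without SPL 1468 genes were called (695 and 773 by direction), and without AMG&PMG 1391 (651 and 740), 40 of them over 2-fold. SPCG alone as the postcentral side gave 1054 calls (549 and 505) and IPCG alone 749 (325 and 424), with fewer counts a sum, and there P2RY12 turned to -4.7e-05. Leaving out an animal gave 1644 to 2190 calls, 790 (without animal 2) to 1065 of them higher in the postcentral cortex. Among the association sub-regions DESeq2 called 923 genes, and leaving out an animal gave 310 to 666, with 405, 363, 397 and 310 without animals 3, 7, 10 and 11. DESeq2 called 101 genes for age stage and 11 for sex, and leaving out an animal gave 0 to 822 for sex. The profile distance between sides less that within ranged from -0.000639 (without animal 10, where it turned) to 0.000644. Of the 24 named genes, chosen by rule for one sign in all 8 animals so that their direction could hardly turn, 7 of 576 values over all alternatives lost the call, 6 without the block (SPAG17, NPPA, NEK2, DMRT2, MATN4 and SLC38A4) and 1 with IPCG alone (SLC38A4). Of 114 other list genes with a call, 2303 of 2736 values kept direction and call. The causes were not tested. Genes under about 1 CPM rest on few counts in the postcentral sums, where the depth is lowest, and their folds are the least certain.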
